A study of Macaca fascicularis with 6 samples.

Results

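Heme and iron handling was followed through 7 genes: HMOX1, BLVRA, BLVRB, FTH1, FTL, TFRC and SLC40A1. They were taken by name out of 14623 genes in the tables, with the day 1 rise of HMOX1 already known from these data, so its p-values are not those of a blind choice; all 7 had a row in at least 1 of the 6 gene tables, 6 of them had a row in every table, and all 7 passed the low-count filter among 12294 genes tested. The samples were epithelial cells of the cornea from wild-type (WT) cynomolgus monkeys, Macaca fascicularis: 2 from uninjured corneas (day 0), 2 from day 1 and 2 from day 3 after an injury to the cornea. The kind of injury, the age of the animals and whether both samples of a group are from 1 animal or from several are not stated, so the p-values reflect sample-to-sample spread that may be only technical. Single cells were caught with 10x Genomics droplets and their full-length cDNA was read by HIT-scISOseq, which sequences whole transcripts as long reads.

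Heme oxygenase 1, the product of HMOX1, opens the heme ring and releases ferrous iron, carbon monoxide and biliverdin, and biliverdin reductases then turn biliverdin into bilirubin. Freed iron is stored in ferritin, a shell of heavy (FTH1) and light (FTL) chains, or leaves the cell through ferroportin (SLC40A1), while transferrin-bound iron enters through the transferrin receptor (TFRC). HMOX1 is a classic stress-induced gene: NRF2 drives it under oxidative stress and BACH1, a heme sensor, represses it. In an epithelium such as that of the cornea it is counted among the enzymes that protect cells after injury.

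The 6 samples held 1068 to 1565 cell barcodes each, 7895 in all, with 3733442 to 4928103 counts per sample and a median of 2462 to 4447 counts per barcode, deepest at day 3. Any 2 samples shared between 0 and 2 barcode sequences. In every sample 12 or 13 of 13 basal and 8 of 10 corneal differentiation markers were detected. Markers of other cells were detected too. Of 9 keratocyte and fibroblast markers 2 were found in each uninjured sample, 6 and 7 at day 1 and 8 in each day 3 sample, with a summed 643 and 499 CPM of totals uninjured, 190 and 185 at day 1 and 702 and 698 at day 3. Of 8 melanocyte markers 6 and 7 were found uninjured, 7 in each day 1 sample and 5 and 3 at day 3, their sum being 76.8 and 100 CPM uninjured, 22.3 and 31.6 (day 1), and 33.5 and 24.4 (day 3). The part of such cells in the changes below was not tested. None of 11 genes of red blood cells, the hemoglobin genes included, had a row in any table. Of 19 immune markers, 4 and 9 were detected uninjured, 11 and 9 at day 1 and 12 and 14 at day 3, and their summed level was 168 and 210 CPM of totals uninjured, 236 and 219 at day 1 and 189 and 172 at day 3; CD163, C1QA, C1QB and C1QC had 0 counts uninjured and at day 1. Counts were summed over all barcodes of a sample and scaled with TMM factors to CPM, the usual unit of counts relative to a library's total. In such sums fewer cells of a type and less RNA per cell cannot be told apart. Changes were tested with edgeR's quasi-likelihood test over all genes, with the Benjamini-Hochberg adjusted p at 0.05. TMM put the median log2 change of all genes at -0.06 for day 1 against uninjured and -0.03 for day 3 against uninjured; scaling to totals alone put it at -0.40 and -0.46, so changes are relative to those medians.

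HMOX1 was the member that changed most. Its level was 6.38 and 6.98 CPM in the uninjured samples, 496 and 456 CPM at day 1, and 61.7 and 55.4 CPM at day 3, resting on 32 and 40, 2252 and 1644, and 268 and 226 counts. The 3 groups did not overlap. At day 1 HMOX1 was 70.9-fold higher than in uninjured corneas (log2 change 6.15, SE 0.12, edgeR adjusted p = 2.87e-11), and at day 3 it was still 8.72-fold higher than in uninjured corneas (log2 change 3.13, SE 0.14, adjusted p = 9.99e-09). Between the injured groups it was 8.13-fold lower at day 3 than at day 1 (log2 change -3.02, SE 0.09).

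In the gene tables the enzymes after heme oxygenase did not follow it. BLVRA, the main biliverdin reductase, stood at 42.4 and 42.2 CPM in uninjured samples, 27.8 and 31.1 CPM at day 1, and 51.6 and 56.4 CPM at day 3. It fell at day 1 against uninjured (log2 change -0.53, SE 0.11, edgeR adjusted p = 0.00134; DESeq2 adjusted p = 0.0785) and was 1.84-fold higher at day 3 than at day 1 (log2 change 0.88, adjusted p = 3.60e-05). Its day 3 gain over uninjured (log2 change 0.35, adjusted p = 0.0100) was not kept by DESeq2 (adjusted p = 0.260) and turned to -0.07 with scaling to totals. BLVRB, which reduces flavins and other biliverdin isomers, had 15.5 and 13.8 CPM uninjured, 20.3 and 10.3 CPM at day 1, and 13.8 and 10.1 CPM at day 3. The day 1 samples of BLVRB lay on either side of the uninjured ones, and no comparison passed (edgeR adjusted p from 0.244 to 0.734). With scaling to totals, however, day 3 was lower than uninjured (log2 change -0.71, edgeR adjusted p = 0.0247). BLVRB isoform counts were 57 in day 1 replicate 1 and 442 in replicate 2, beside 92 and 37 gene counts, so its level is uncertain.

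The 2 ferritin chains moved apart. FTL had 1219 and 1149 CPM in uninjured samples, 1873 and 1867 CPM at day 1, and 1610 and 1599 CPM at day 3. FTL was 1.58-fold higher at day 1 than in uninjured corneas (log2 change 0.66, SE 0.08, adjusted p = 1.55e-05) and 1.35-fold higher at day 3 than in uninjured corneas (log2 change 0.44, adjusted p = 4.53e-04), although with scaling to totals the day 3 change was 0.02 and did not pass. FTH1 had 12632 and 11144 CPM in uninjured samples, 12695 and 13198 CPM at day 1, and 10186 and 9585 CPM at day 3. The day 1 difference of FTH1 from uninjured did not pass (log2 change 0.12, adjusted p = 0.207) and had the other sign with scaling to totals (-0.21), and at day 3 it fell below uninjured (log2 change -0.27, SE 0.08, adjusted p = 0.0159; adjusted p = 0.119 without uninjured replicate 1 and 0.109 without day 3 replicate 2). The ratio of FTH1 to FTL counts, which does not depend on the scaling, was 10.4 and 9.70 uninjured, 6.78 and 7.07 at day 1, and 6.33 and 6.0 at day 3. It was lower in each of the 4 injured samples than in both uninjured ones. The 2 chains together made up 1.64% and 1.47% of all counts uninjured, 1.34% and 1.45% at day 1, and 1.05% and 0.995% at day 3.

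Iron entry and exit were also measured at the transcript level. TFRC, the uptake receptor, had 128 and 133 CPM in uninjured samples, 237 and 218 CPM at day 1, and 81.7 and 80.7 CPM at day 3. Its 3 groups did not overlap, and day 1 and day 3 lay on opposite sides of the uninjured level. TFRC rose 1.75-fold at day 1 against uninjured (log2 change 0.81, SE 0.07, adjusted p = 2.62e-06) and fell at day 3, to 1.60-fold below uninjured (log2 change -0.68, SE 0.08, adjusted p = 2.68e-05). SLC40A1, the iron exporter, was close to the detection limit, with 14 and 15 counts uninjured, 7 and 0 at day 1, and 9 and 5 at day 3. Its day 1 difference from uninjured did not pass (adjusted p = 0.0920) and was -0.79 on the log2 scale without day 1 replicate 2, where a count of 0 allows up to 0.804 CPM of the sample total; it passed with scaling to totals (-1.97, adjusted p = 0.0382) and without day 1 replicate 1 (adjusted p = 0.0102).

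Counted together, 4 of the 7 genes passed at day 1 against uninjured, 3 higher and 1 lower, where 62.2% of all genes tested passed (30.5% higher and 31.7% lower). At day 3 against uninjured 5 of the 7 passed, 3 higher and 2 lower, where 55.2% of all genes passed (28.8% higher and 26.4% lower), and this count was 3 without day 3 replicate 2. At day 3 against day 1 5 of the 7 passed, BLVRA higher and HMOX1, TFRC, FTH1 and FTL lower, where 59.3% of all genes passed (30.5% higher and 28.8% lower). Scaling to totals gave another split: 3 of the 7 higher and 3 lower at day 1 against uninjured, where 19.4% of all genes were higher and 47.2% lower, and 1 higher and 3 lower at day 3 against uninjured, where 16.1% were higher and 50.4% lower, and 66.6% of all genes passed in each of these 2 comparisons. With most genes passing, these counts are near the background and are no result about the 7 genes.

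**Figure D1:**
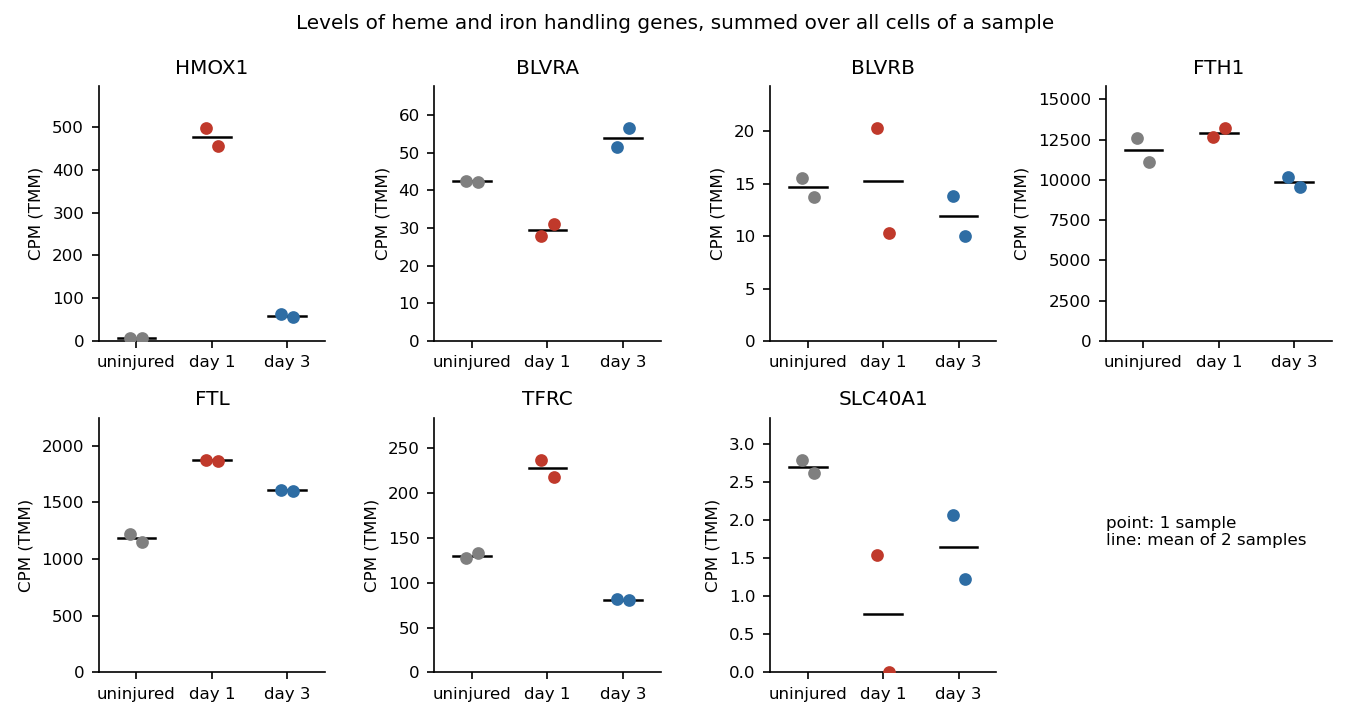
Levels of the 7 genes in CPM (vertical axes, each from 0) by group (horizontal axes), summed over all barcodes of a sample; points are samples and lines are means of 2. HMOX1 stands at 496 and 456 CPM at day 1, far above its other samples, TFRC is high at day 1 and low at day 3, and the 2 BLVRB samples of day 1 lie apart.

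To compare cells of unlike depth, each barcode was thinned to 1000 counts and shallower barcodes were left out. The share of barcodes with an HMOX1 count was then 0.538% (exact Clopper-Pearson 95% interval 0.232 to 1.06) and 0.816% (0.408 to 1.46) uninjured, 18.3% (16.4 to 20.5) and 19.4% (17.2 to 21.9) at day 1, and 5.26% (4.01 to 6.76) and 4.23% (3.10 to 5.62) at day 3. Before thinning the shares were 1.79% and 2.19% uninjured, 28.9% and 26.8% at day 1, and 13.2% and 12.2% at day 3. These intervals cover counting error only. No cell type in these tables is known to lack HMOX1, so the uninjured share is the nearest background, and the part of free RNA in droplets was not tested. The share of barcodes with TFRC moved the same way as its level, with 13.2% and 14.3% uninjured, 20.1% and 19.6% at day 1, and 9.04% and 7.34% at day 3. FTH1 was found in 94.2% to 97.1% of thinned barcodes in every sample and FTL in 69.1% to 77.5%. BLVRA was found in 5.65% and 4.75% of barcodes uninjured, 2.5% and 3.24% at day 1, and 6.37% and 5.64% at day 3. In the gene tables BLVRB was found in at most 1.5% of thinned barcodes in any sample and SLC40A1 in at most 0.470%. The isoform tables, not thinned, had BLVRB in 333 of 1234 barcodes in day 1 replicate 2. At day 3 they had it in 202 of 701 and 160 of 679 barcodes.

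Within day 1 the HMOX1 counts were concentrated in few cells. The largest number in 1 barcode was 4 and 3 uninjured, 40 and 35 at day 1, and 14 and 8 at day 3. At day 1, 78 of 1482 barcodes (5.26%) and 51 of 1267 (4.03%) had 10 or more HMOX1 counts, and they held 53.9% and 48.5% of the sample's HMOX1 counts, while 1053 and 927 barcodes had none. The tenth of barcodes with most HMOX1 held 80.5% and 78.5% of the HMOX1 counts after thinning, and 75.2% and 74.7% when thinned to 2000 counts. The same share was 100% in each uninjured and day 3 sample, where few barcodes had any HMOX1, so it does not set day 1 apart. Barcodes with much HMOX1 were also somewhat deeper: the median total was 3980 and 3476 counts in barcodes with 10 or more HMOX1 counts, and 3151 and 2845 in barcodes with none. The Fano factor of HMOX1, its variance over its mean across thinned barcodes, was 3.59 and 3.21, where the genes of like mean (231 and 254 of them) had a median of 1.12 in both samples and 8 and 10 of them exceeded HMOX1.

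**Figure D2:**
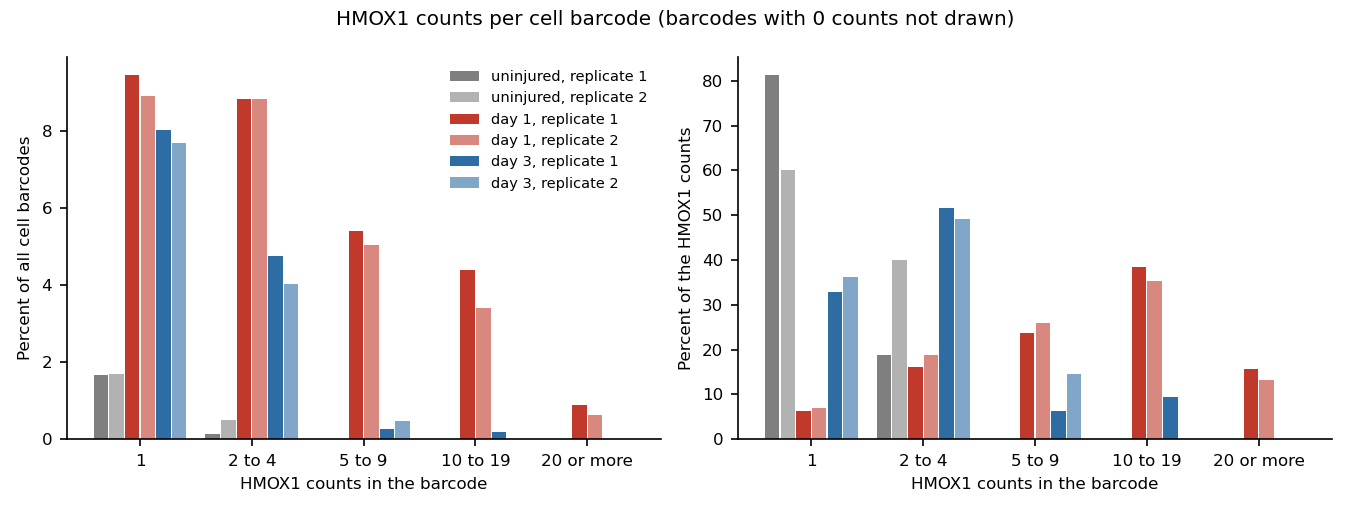
Share of all barcodes (left axis, percent) and share of the sample's HMOX1 counts (right axis, percent) by the number of HMOX1 counts in the barcode, for each of the 6 samples; barcodes with 0 counts are not drawn. Barcodes of 10 or more counts are nearly all from day 1, where they hold 53.9% and 48.5% of the counts.

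The cells that carried HMOX1 at day 1 were sought in clusters made without the 7 genes and without NRF2 target genes. Clusters were named by marker lists, so the names were rebuilt here and are not the authors'. Day 1 cells fell mainly into 4 clusters. Cluster 3 was basal-like and led by genes such as COL7A1 and CXCL14. Cluster 5 was basal-like and led by MMP1, MMP10 and KRT14. Cluster 1 was corneal differentiated-like, with KRT3, KRT12 and KRT24. Cluster 7 was conjunctival-like, with KRT4. Its 10 leading genes also held AQP5, a marker of the corneal differentiated list. Its name rests on the mean log2 fold of each list over other clusters, 3.08 for the conjunctival and -1.97 for the corneal differentiated list. HMOX1 was found in all 4 clusters and was uneven among them. In cluster 3 it reached 898 and 971 CPM of the cluster's total, in cluster 7 it reached 677 and 673, in cluster 1 it reached 308 and 253, and in cluster 5 it reached 169 and 150. The order was the same in both day 1 samples, and no cluster's pair of values overlapped with that of its neighbour. Clusters 3 and 5, which carry the same basal-like name, stood at the 2 ends of this order.

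Cluster 3 held 12.7% and 12.9% of the day 1 barcodes and 22.4% and 26% of the HMOX1 counts. Cluster 7 held 18.6% and 17.7% of the barcodes and 38.2% and 37.1% of the counts. Both clusters held a larger share of the HMOX1 counts than of the barcodes. Cluster 1, with 41.2% and 41.7% of the barcodes, held 29.4% and 26.1% of the counts, and cluster 5, with 23.9% in each sample, held 6.17% and 5.23%. After thinning, HMOX1 was found in 36.5% (95% interval 29.5 to 43.9) and 38.0% (30.6 to 46.0) of cluster 3 barcodes, 28.8% (23.5 to 34.6) and 29.5% (23.6 to 36.1) of cluster 7, 12% (9.44 to 14.9) and 13.2% (10.3 to 16.5) of cluster 1, and 9.15% (6.26 to 12.8) and 8.16% (5.06 to 12.3) of cluster 5. The shares of clusters 3 and 7 had overlapping intervals, and both were above those of clusters 1 and 5. Before thinning, barcodes with 10 or more HMOX1 counts were 9.57% and 9.15% of cluster 3, 12% and 10.3% of cluster 7, 3.44% and 2.27% of cluster 1, and 0.847% and 0 of 303 in cluster 5. The median counts per barcode were 2922 and 2605.5 in cluster 3, 4406 and 4039.5 in cluster 7, 3587.5 and 3381 in cluster 1, and 2174.5 and 1784 in cluster 5. Depth therefore enters these shares and the shares of the HMOX1 counts.

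The other genes were distributed over these day 1 clusters in ways of their own. FTH1 was highest where HMOX1 was highest, with 25310 and 26631 CPM in cluster 3, but was lowest in cluster 7, the second HMOX1 cluster, with 4287 and 3680. FTH1 was already high in the uninjured cells of cluster 3, at 35694 and 29504 CPM, where HMOX1 was at 4.93 and 5.38. In cluster 3 alone the day 1 change of FTH1 against uninjured did not pass (log2 change -0.29, edgeR adjusted p = 0.112). FTL was nearly level in clusters 3, 7 and 1, between 1432 and 1586 CPM, and highest in cluster 5 with 2869 and 3148, where HMOX1 was lowest. TFRC was 97.5 and 97.1 CPM in cluster 7 and 220 to 292 in the other 3. The day 1 values are levels in 2 samples with no test between clusters.

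**Figure D3:**
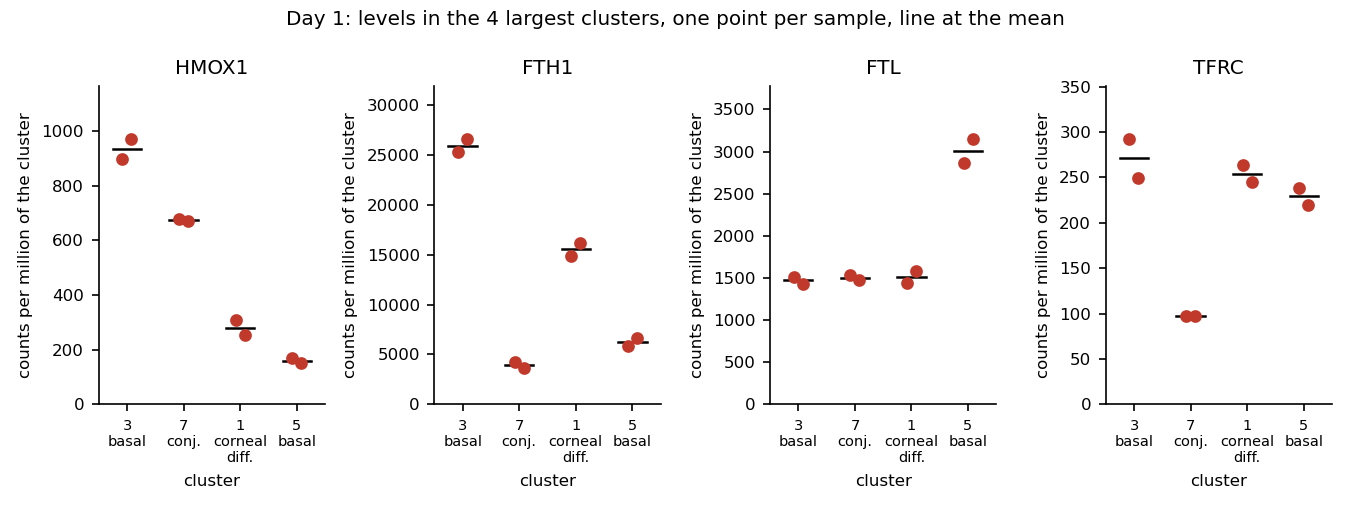
Levels of HMOX1, FTH1, FTL and TFRC at day 1 (CPM of the cluster's total, axes from 0) in clusters 3, 7, 1 and 5; points are the 2 day 1 samples and lines their means. HMOX1 and FTH1 are both highest in cluster 3, FTH1 and TFRC are lowest in cluster 7, and FTL is highest in cluster 5.

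Macrophages can make much HMOX1, so barcodes with immune markers were counted apart. Of 12 macrophage and leukocyte markers 10 had a row; barcodes with at least 2 of them numbered 3 and 2 at day 1 and held 0 and 1 HMOX1 counts. Barcodes with at least 1 such marker numbered 30 and 22 and held 1.02% and 2.86% of the HMOX1 counts. PTPRC and CD163 had 0 counts in all thinned day 1 barcodes, with or without HMOX1. Before thinning PTPRC was detected in both day 1 samples and CD163 in neither. CD68, LYZ, CD74, CD3D, CD3E, LCP1 and CSF3R of the 19 immune markers were not among these 12. CD68 was detected, at 39.2 and 26.3 CPM in day 1 barcodes with 3 or more thinned HMOX1 counts. These values rest on 4 and 2 CD68 counts. In barcodes with no HMOX1 it stood at 16.6 and 35.9 CPM, so the 2 samples differed in direction.

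The rise of HMOX1 was then tested within the 3 classes that had at least 50 barcodes in every sample. Clusters were largely separate by group, so the basal-like class was mostly clusters 0 and 3 uninjured, 3 and 5 at day 1, and 8 at day 3; the corneal differentiated-like class was mostly clusters 2, 1 and 4 at the 3 times; and the conjunctival-like class was mostly clusters 9, 7 and 6. Of 12 conjunctival and goblet markers 5 or 6 were detected in a sample, and KRT13, KRT8, KRT18, MUC5AC, MUC4 and TFF3 were at 0 in every sample. In cluster 0 the vascular list had a mean log2 fold of 0.98 over other clusters and the basal list 0.85, with 0 vascular and 2 basal markers among its 10 leading genes. HMOX1 reached 516 and 513 CPM at day 1 in the basal-like class, against 5.89 and 4.53 CPM uninjured (log2 change 6.60, SE 0.18, edgeR adjusted p = 5.66e-23). In the conjunctival-like class it reached 778 and 758 CPM at day 1, against 10.4 and 13 CPM uninjured (log2 change 6.01, adjusted p = 2.66e-14). In the corneal differentiated-like class it reached 320 and 259 CPM at day 1, against 5.50 and 5.46 CPM uninjured (log2 change 5.71, adjusted p = 4.48e-16); its log2 change was 7.12 when clusters were drawn at resolution 1.0, and 4.84 in place of 3.42 for day 3 against uninjured. Of all genes in these fits 56.5%, 48.2% and 55.3% passed at day 1 against uninjured, in the same order of classes; 41.5%, 44.3% and 47.2% passed at day 3 against uninjured and 46.6%, 47.2% and 51.8% at day 3 against day 1. In cluster 3 alone, which both groups filled, the log2 change was 7.48 (edgeR adjusted p = 4.79e-17), where 30.1% of genes passed. It rests on 3 HMOX1 counts in each uninjured sample (218 and 175 barcodes), against 504 and 428 at day 1, so its size is imprecise.

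Whether the classes differed in these changes was tested in 1 fit over the sums of the 3 classes, with the sample as a block; 10.6% to 19.3% of 11138 genes passed in its 9 contrasts. For HMOX1 at day 1 against uninjured no difference between classes passed: conjunctival-like minus basal-like was -0.52 (SE 0.43, adjusted p = 0.519), corneal differentiated-like minus basal-like was -0.85 (SE 0.45, adjusted p = 0.221), and conjunctival-like minus corneal differentiated-like was 0.33 (SE 0.43, adjusted p = 0.728). In these 3 contrasts 10.6%, 13.9% and 13.1% of all genes passed, and with so few uninjured HMOX1 counts the differences are imprecise. From day 1 to day 3 the fall of HMOX1 was steeper in the conjunctival-like class, by -1.32 on the log2 scale against the corneal differentiated-like class (SE 0.18, adjusted p = 1.10e-09) and by -0.84 against the basal-like class (SE 0.19, adjusted p = 7.26e-04), where 19.3% and 13% of all genes passed; the contrast of the other pair did not pass (17.7% of genes did). At day 3 the 3 classes stood close together, at 70.9 and 77.5 CPM in the basal-like class, 65.0 and 64.9 CPM in the conjunctival-like class, and 64.3 and 54.0 CPM in the corneal differentiated-like class.

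FTH1 differed between classes in all 9 tests, with changes of opposite sign at day 3. In the conjunctival-like class FTH1 was 15674 and 15358 CPM at day 3, against 2290 and 2553 CPM uninjured, a 6.40-fold rise (log2 change 2.68, SE 0.11, adjusted p = 3.00e-12). In the corneal differentiated-like class it was 6055 and 5105 CPM at day 3, against 13288 and 13402 CPM uninjured, a 2.39-fold fall (log2 change -1.26). In the basal-like class it was 10446 and 10304 CPM at day 3, against 18116 and 15367 CPM uninjured (log2 change -0.69, adjusted p = 1.24e-06). The conjunctival-like change exceeded the corneal differentiated-like one by 3.92 on the log2 scale (SE 0.09, adjusted p = 3.35e-68) and the basal-like one by 3.36 (SE 0.09, adjusted p = 8.73e-62), where 12.2% and 14.3% of genes passed; the corneal differentiated-like change was below the basal-like one by -0.56 (adjusted p = 6.06e-08; 16.7% of genes passed). At day 1 FTH1 had risen to 4809 and 3987 CPM in the conjunctival-like class, against 2290 and 2553 CPM uninjured. The day 1 changes of FTH1 in the other 2 classes turned on the settings, and no direction is given for them: the basal-like one was 0.34 at resolution 0.3 and -0.54 at resolution 1.0, and the corneal differentiated-like one was 0.95 at resolution 1.0 and -0.02 with scaling to totals.

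TFRC and FTL also took different courses by class. TFRC at day 3 was 43.3 and 43.6 CPM in the corneal differentiated-like class, against 169 and 171 CPM uninjured (log2 change -1.97, SE 0.13, adjusted p = 4.11e-11), and 93.7 and 101 CPM in the conjunctival-like class, against 68.4 and 81.0 CPM uninjured, which did not pass (log2 change 0.37, adjusted p = 0.0538). The difference of these 2 changes was 2.32 (SE 0.20, adjusted p = 1.29e-18). FTL at day 3 was 2341 and 2211 CPM in the conjunctival-like class, against 1280 CPM in both uninjured samples (log2 change 0.83), and 1417 and 1395 CPM in the basal-like class, against 1723 and 1565 CPM uninjured, which did not pass (log2 change -0.23, adjusted p = 0.0835). The difference was 1.05 (SE 0.09, adjusted p = 3.12e-20). BLVRA and BLVRB showed no difference between classes that passed in any of 9 tests each. Since other clusters fill a class at each time, a change within a class and a change in which cells fill it cannot be told apart.

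**Figure D4:**
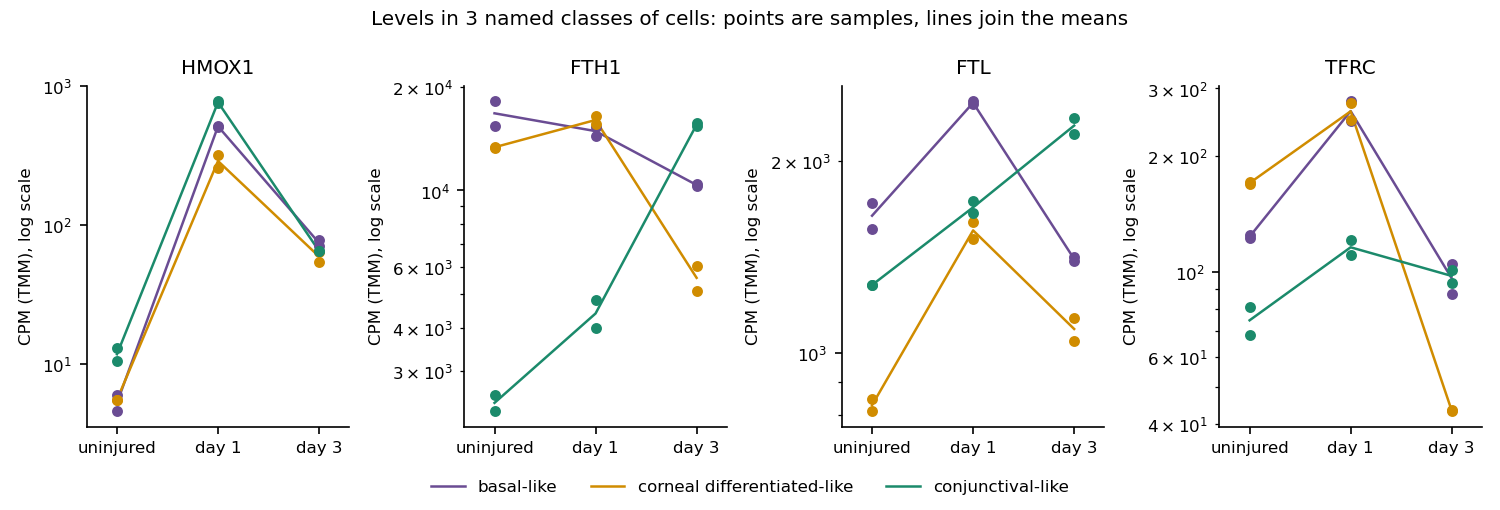
Levels of HMOX1, FTH1, FTL and TFRC (CPM with TMM, log scale) in 3 classes of cells at the 3 times; points are samples and lines join the means. HMOX1 is high at day 1 in all 3 classes, the conjunctival-like line of FTH1 ends highest, at 15674 and 15358 CPM at day 3, and TFRC drops to 43.3 and 43.6 CPM in the corneal differentiated-like line.

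Genes that accompanied HMOX1 from cell to cell at day 1 were looked for among 2712 genes, by the lower of the correlations in the 2 samples over 1401 and 1142 thinned barcodes. The first 10 were PLAU, PLAUR, EMP1, ALDH1A3, SERPINB2, SLC20A1, F3, SQSTM1, ANXA1 and HBEGF, with r of 0.258 or less for each in at least 1 sample; all are weak, and the barcodes share library and thinning. PLAU encodes urokinase, PLAUR its receptor, F3 tissue factor and HBEGF a ligand of the EGF receptor. The levels by HMOX1 content follow. PLAU stood at 1137 and 1316 CPM in barcodes with 3 or more thinned HMOX1 counts, against 320 and 418 in barcodes with none, and SQSTM1, an autophagy receptor and NRF2 target, at 1402 and 1539 against 778 and 815. TXNRD1, thioredoxin reductase 1, stood at 304 and 382 against 143 and 190. Other NRF2 targets went both ways. NQO1 stood at 304 and 461 against 242 and 259. GPX2 was lower with HMOX1, at 88.2 and 145 against 226 and 207, as was PGD, at 245 and 368 against 356 and 385. NRF2 targets thus did not accompany HMOX1 as a set. FTH1 stood at 13775 and 15579 against 11071 and 12173, with barcodes of 1 or 2 HMOX1 counts between them. FTL did not order this way, at 1618 and 2289 against 1789 and 2025, nor did TFRC, at 225 and 276 against 237 and 218. KRT3, a keratin of differentiated cornea, stood at 1471 and 1461 against 3028 and 3450. Cluster was not held fixed in these values.

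Over the 6 samples, the genes whose log2 level followed HMOX1 most closely, among 4384 genes, were PRRG4, ENSMFAG00000032482, LUZP1, DCUN1D5 and MARK3, with Pearson's r from 0.9993 to 0.9997. The points are 3 groups of 2 samples, so r here says only that the groups had the order and the relative log2 spacing of HMOX1. Each gene was lowest uninjured, highest at day 1 and between them at day 3. PRRG4, for instance, had 57.8 and 57.0 CPM uninjured, 203 and 199 CPM at day 1, and 110 and 106 CPM at day 3.

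Of the other genes of heme and iron handling and of HMOX1 control, 80 were listed, 64 had a row and 58 were tested. At day 1 against uninjured 17 rose, 20 fell and 21 did not pass, with a median log2 change of 0.02, beside -0.06 for all genes, of which 30.5% rose and 31.7% fell; with scaling to totals 14 of them rose and 29 fell, where 19.4% and 47.2% of all genes did. At day 3 against uninjured 22 rose, 8 fell and 28 did not pass, with a median of 0.11 beside -0.03, where 28.8% of all genes rose and 26.4% fell; with scaling to totals 9 rose and 25 fell, where 16.1% and 50.4% of all genes did. The balance at both times depends on the scaling. Taken in either direction, the shares called with TMM are near those of all genes, 62.2% for day 1 and 55.2% for day 3 against uninjured. By direction, day 3 departed from them with TMM, with 22 of 58 higher and 8 lower.

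Of 9 enzymes and carriers of heme synthesis 6 fell, 0 rose and 3 did not pass at day 1 against uninjured (median -0.50), where 31.7% of all genes fell and 62.2% passed in either direction. The number that fell was again 6 with scaling to totals, where 47.2% of all genes fell, and 3 with DESeq2, where 14.8% did and 32.9% passed in either direction. FECH, ferrochelatase, which inserts iron into the ring, had 21.6 and 16.1 CPM at day 1, against 45.8 and 48.0 CPM uninjured (log2 change -1.30, adjusted p = 1.13e-05). ALAD, which makes porphobilinogen, fell by 1.42 on the log2 scale and PPOX, protoporphyrinogen oxidase, by 0.87. ALAS1, the first enzyme of the pathway, did not pass (log2 change 0.22, adjusted p = 0.293). At day 3 against day 1 5 of the 9 were higher and 0 lower, where 30.5% of all genes were higher and 28.8% lower.

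Of 10 heme-binding and heme transport genes tested, 6 fell and 1 rose at day 1 against uninjured (median -0.49), where 31.7% of all genes fell and 30.5% rose. SLC46A1, a folate carrier that can also move heme, had 0 counts in both day 1 samples, against 23 counts in each uninjured sample, at least 11.7-fold lower against a floor of 3 counts over the group. ABCB10, a mitochondrial transporter needed for heme synthesis, fell by 1.15 on the log2 scale and ABCB6, a porphyrin transporter, by 0.98. HEBP2, a heme-binding protein, was the 1 that rose at day 1 against uninjured (log2 change 0.31), where 0 of the 10 rose with scaling to totals or with DESeq2, and was at 1.34 for day 3 against uninjured. HMOX2, the constitutive heme oxygenase, had a mean of 35.2 CPM at day 1 against 41.7 CPM uninjured, which did not pass (adjusted p = 0.0616).

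Iron uptake, reduction, storage and export genes gave mixed counts. Of 8 uptake and reduction genes, 3 rose and 1 fell at day 1 against uninjured (median 0.31), where 30.5% of all genes rose and 31.7% fell. LCN2, lipocalin 2, which binds iron-loaded siderophores, had 27.8 and 25.5 CPM at day 1, against 1.79 and 1.92 CPM uninjured (log2 change 3.83). STEAP4, a metalloreductase, had 29 counts at day 1 against 0 uninjured, at least 12.3-fold higher. CD44, a hyaluronan receptor that has been tied to iron uptake, was 1.2 higher on the log2 scale. Of 6 storage, chaperone and export genes, 4 rose and 2 fell (median 0.67). CP, ceruloplasmin, the ferroxidase that works with ferroportin, averaged 190 CPM at day 1 and 364 CPM at day 3, against 92.4 CPM uninjured. PCBP1, which delivers iron to ferritin, averaged 301 CPM at day 1 against 158 CPM uninjured. PCBP3 of the same family had 23 counts at day 1 against 0 uninjured, at least 9.80-fold higher. HFE, a partner of the transferrin receptor, and PROM2, linked to ferritin release, fell by 2.12 and 1.32 on the log2 scale; HFE had 10 and 0 counts at day 1, against 32 and 26 uninjured. These list medians were the same with genes at 0 set to their bounds.

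Iron sensing and mitochondrial iron genes were read against the same shares of all genes, 30.5% higher and 31.7% lower. Of the 3 sensors only IREB2, iron regulatory protein 2, which stabilises TFRC mRNA and blocks ferritin translation, passed at day 1, with 35.3 and 38.0 CPM, against 20.5 and 22.2 CPM uninjured (log2 change 0.77, adjusted p = 0.00218). Of 14 mitochondrial iron and iron-sulfur cluster genes, 2 rose and 5 fell at day 1 (median -0.10); with scaling to totals 1 rose and 10 fell, where 19.4% and 47.2% of all genes did. The cluster assembly genes NFU1 and HSCB fell by 1.39 and 1.26 on the log2 scale, while FDX1, a ferredoxin, was 1.45 higher.

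Among regulators of HMOX1, 6 of 8 tested rose at day 1 against uninjured, 0 fell, and the median was 1.16, where 30.5% of all genes rose and 62.2% passed in either direction. With scaling to totals 6 rose and 1 fell, where 19.4% of all genes rose, and with DESeq2 6 rose, where 18.1% of all genes did. HIF1A, the hypoxia factor, had 228 and 210 CPM at day 1, against 51.8 and 49.7 CPM uninjured (log2 change 2.11). ATF4, of the integrated stress response, had 629 and 619 CPM at day 1, against 224 and 209 CPM uninjured. BACH1, the repressor, also rose, to 35.5 and 26.1 CPM at day 1, against 9.36 and 14.3 CPM uninjured (log2 change 1.38). NFE2L2, which encodes NRF2, did not pass (log2 change 0.13, adjusted p = 0.144). Of 18 other NRF2 targets 12 rose and 3 fell at day 1 (median 0.43), where 30.5% of all genes rose and 31.7% fell; 8 rose and 5 fell with scaling to totals, where 19.4% and 47.2% of all genes did, and 7 rose with DESeq2, where 18.1% did. GPX2, a glutathione peroxidase, had 352 and 257 CPM at day 1, against 31.5 and 27.4 CPM uninjured, TXNRD1 had 199 and 210 against 28.5 and 26.5 CPM, and SRXN1, sulfiredoxin, had 81.5 and 74.9 against 17.7 and 18.1 CPM. OSGIN1 and GCLC, also NRF2 targets, fell, by 1.96 and 0.62 on the log2 scale.

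**Figure D5:**
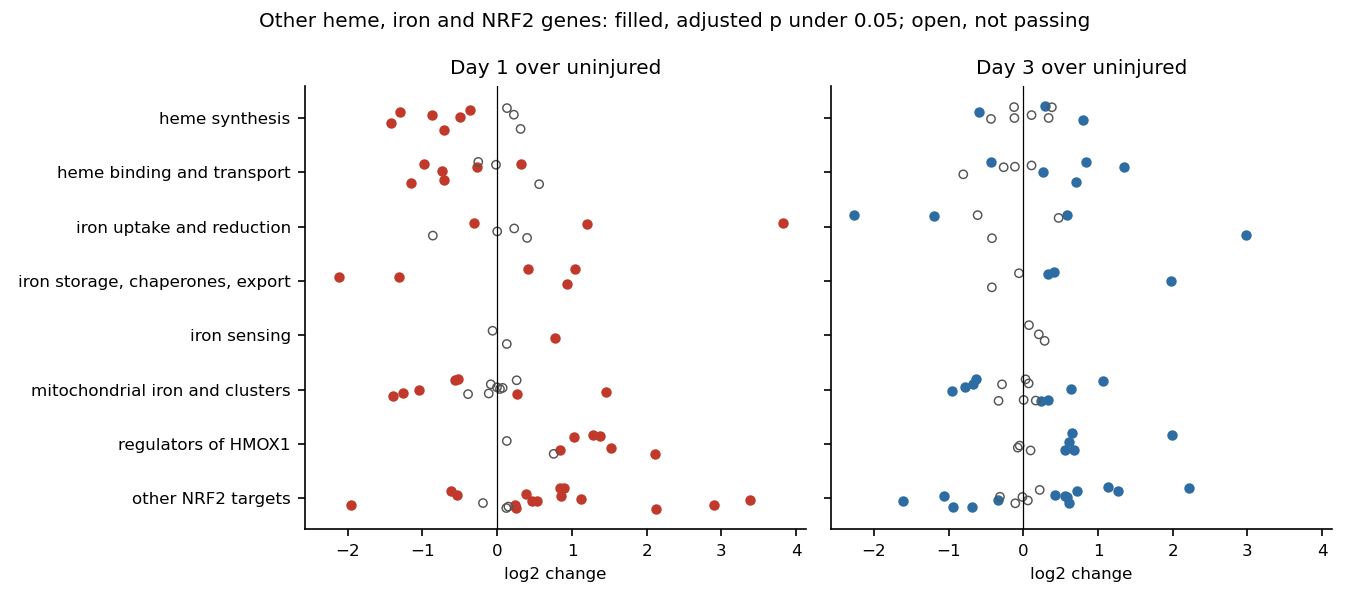
Log2 changes (horizontal axis) at day 1 and day 3 over uninjured of the tested genes in 8 lists of other heme, iron and NRF2 genes, without genes that had 0 counts in a whole group; filled points have an adjusted p under 0.05. At day 1 the heme synthesis points that passed all lie below 0 and those of the HMOX1 regulators all lie above 0.

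The isoform tables did not carry these genes in a comparable way. One naming system served both uninjured samples together with replicate 1 of day 1, and another served the rest. HMOX1 had 0 isoform counts in both uninjured samples, 913 in day 1 replicate 1 over 4 isoforms, 121 in day 1 replicate 2 in 1 isoform, and 15 and 19 at day 3, so the day 1 replicates differed where the gene tables gave 2252 and 1644 counts. FTH1 had 614, 594 and 449 isoform counts in the samples of the first system and 43802, 25354 and 22974 in those of the second. BLVRB had 442 isoform counts in day 1 replicate 2 against 37 gene counts, and 9.31% of the barcodes with its isoform had a count of the gene. Isoform counts of the 7 genes were therefore not compared between groups.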

How the data were processed

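For each of 6 samples the authors deposited whole-number count tables of gene by cell barcode and of isoform by cell barcode, per the labels' protocols from 10x Genomics capture and HIT-scISOseq libraries. The aligner, build, annotation, barcode filters and the read type behind the gene tables were not given in the sources used here, so no coordinates or sequences are given. The 7 genes and all gene lists were chosen with earlier results of these data known.

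All 7895 barcodes were kept. Counts were summed per sample and fitted in edgeR 4.0.16 (R 4.3.3; TMM, filterByExpr, quasi-likelihood F test, group as the only term, Benjamini-Hochberg threshold 0.05), a design checked on simulated data; SE is the absolute log2 change over the square root of F. Alternatives were scaling to totals, DESeq2 1.42.0, no filter, a replicate block, 66 Scrublet doublets or 68 barcodes under 500 counts left out, and each sample left out.

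Barcodes were thinned to 1000 counts (500 and 2000 as alternatives). Clusters came from scanpy 1.11.5 and leidenalg 0.10.2: values scaled within each sample, 2000 variable genes less the 7 genes and NRF2 targets (1991 left), 30 principal components, 15 neighbours, resolution 0.5 (0.3 and 1.0 as alternatives). Class results of genes other than HMOX1, cluster 3 alone, the immune barcodes and the test between classes were added after seeing the data. Genes named from the lists are the up to 3 largest changes past the threshold at day 1; ALAS1, HMOX2, HEBP2, CP, PCBP1, NFE2L2, OSGIN1, GCLC, KRT3 and the other genes shown by HMOX1 content were chosen after their values were seen.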

Additional observations from a re-analysis of the deposited data

Results flagged for a closer look

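The day effect differed between classes of cells in 27 of 54 tests on 6 of the 7 genes (edgeR adjusted p under 0.05 over 11138 genes in each contrast). In these 9 contrasts 10.6% to 19.3% of all genes passed. SLC40A1 was not tested in classes. Values are differences of log2 changes. FTH1 passed in all 9: conjunctival-like minus basal-like was 1.09 for day 1 against uninjured, 3.36 for day 3 against uninjured and 2.27 for day 3 over day 1; conjunctival-like minus corneal differentiated-like was 0.63, 3.92 and 3.29 in the same order; and corneal differentiated-like minus basal-like was 0.46, -0.56 and -1.02. The 0.46 at day 1 has no firm ground, since the changes it compares turned on the settings, from -0.02 to 0.95 in the corneal differentiated-like and from -0.54 to 0.34 in the basal-like class. The test between classes was not repeated at other resolutions or scalings. FTL passed in 8: conjunctival-like minus basal-like was 1.05 for day 3 against uninjured and 1.17 for day 3 over day 1; conjunctival-like minus corneal differentiated-like was -0.47 at day 1 against uninjured, 0.42 for day 3 against uninjured and 0.89 for day 3 over day 1; and corneal differentiated-like minus basal-like was 0.35, 0.63 and 0.28.

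TFRC passed in 7. Conjunctival-like minus basal-like was 0.72 for day 3 against uninjured and 1.14 for day 3 over day 1, conjunctival-like minus corneal differentiated-like was 2.32 and 2.31, and corneal differentiated-like minus basal-like was -0.43 at day 1 against uninjured, -1.60 for day 3 against uninjured and -1.16 for day 3 over day 1. HMOX1 passed in 3: conjunctival-like minus basal-like was -1.36 at day 3 against uninjured (adjusted p = 0.0316) and -0.84 at day 3 against day 1, and conjunctival-like minus corneal differentiated-like was -1.32 at day 3 against day 1. Different clusters fill a class at each time, which cannot be told apart from a change within it. Over the alternatives the day 3 against uninjured change of FTH1 ran from 2.14 to 2.77 in the conjunctival-like class, from -1.71 to -0.95 in the corneal differentiated-like class and from -1.06 to -0.57 in the basal-like class.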

How the results depend on the processing

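HMOX1 kept its direction and its call in every comparison and class under every alternative that gave a value; leaving out 1 sample gave a log2 change of 6.08 to 6.22 at day 1 and 3.05 to 3.20 at day 3, both against uninjured. Within classes its day 1 change ran from 6.07 to 7.48 (basal-like), 5.56 to 6.22 (conjunctival-like) and 5.43 to 7.12 (corneal differentiated-like) over the alternatives. The conjunctival-like class gave no value at resolution 0.3. DESeq2 called 4623 genes at day 1 against uninjured, 3569 for day 3 against uninjured and 4295 for day 3 over day 1, where edgeR called 7646, 6792 and 7294. At day 3 against uninjured DESeq2 called 17 of the other heme and iron genes, where edgeR called 30. Leaving out 1 sample gave 3 to 5 of the 7 genes called at day 3 against uninjured. The mean day 1 share of barcodes with HMOX1 was 12.96% thinned to 500 counts and 25.6% thinned to 2000; deeper thinning keeps more counts by construction. Small changes reversed: with scaling to totals BLVRB (-0.24) and FTH1 (-0.21, adjusted p = 0.0450) at day 1 and BLVRA (-0.072) at day 3 against uninjured. BLVRB ran from -0.51 to 0.48 at day 1 against uninjured and from -0.76 to 0.23 for day 3 over day 1 when 1 sample was left out, the extremes being without day 1 replicates 1 and 2. FTL at day 3 against day 1 lost its call without day 3 replicate 1 (adjusted p = 0.107) or 2 (adjusted p = 0.111). The cause of these was not tested. Same-numbered samples did not deviate together over the tested genes (r of 0.03, 0.05 and 0.02). This cannot exclude pairing, since counting noise in low genes also lowers r. The labels do not say whether the numbers pair samples. With the replicate block 7302 genes and 4 of the 7 passed at day 1 against uninjured, and the block changed no call of the 7 genes. Of the 10 genes most like HMOX1 between cells, 7 were among the 10 when thinned to 2000. Depth limits SLC40A1, with 0 to 15 counts per sample, and BLVRB. The isoform counts of BLVRB exceeded its gene counts in day 1 replicate 2 and in both day 3 samples.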
